A study of Homo sapiens with 7 samples.

Results

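The insulin-like growth factor (IGF) axis was examined in RH30 cells, an established human cell line of alveolar rhabdomyosarcoma, with and without the Smac mimetic BV6, a small molecule that imitates the mitochondrial protein Smac and antagonizes IAPs. It was represented by 10 of the 57189 genes in the count table. These were the growth factor gene IGF2, the read-through gene INS-IGF2, the transcript AC132217.1, the imprinted non-coding gene H19, the receptors IGF1R and IGF2R, the binding proteins IGFBP2, IGFBP3 and IGFBP5, and the adaptor IRS1. The genes were chosen by name, with the lower IGF2, INS-IGF2 and AC132217.1 levels after BV6 already known. For this reason the differences of these 10 genes between BV6-treated and untreated cells are given as a description, without p-values. The RNAseq data comprised 4 samples of untreated wild-type RH30 cells (replicates 1 to 4) and 3 samples of wild-type RH30 cells exposed to 5 µM BV6 over 24 h (replicates 2 to 4). Same-numbered samples carry a common tag in their titles, and only untreated replicate 1 stands without a BV6 counterpart. All samples come from a single cell line grown in the same serum-containing medium, and the methods state that RH30 cells carrying GFP and luciferase were used throughout. The study calls the replicates biological, and the labels do not say whether they were separate cultures, so the errors and p-values below measure only the spread between these samples, which may be technical.

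IGF2 is a secreted growth factor that signals through IGF1R, a receptor tyrosine kinase that recruits IRS adaptors and activates the PI3K-AKT and RAS-MAPK pathways. IGF2R, the mannose 6-phosphate receptor, takes IGF2 up for degradation, and secreted IGF-binding proteins hold IGFs in the extracellular space. IGF2 and H19 are neighbors in an imprinted cluster on chromosome 11, and high IGF2 expression is a known feature of rhabdomyosarcoma.

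Library totals ranged from 54070030 to 77220882 counts, and 3 counts, the smallest number taken as detected, corresponded to 0.0389 to 0.0557 CPM (counts scaled to a common library size after TMM normalization). These totals exceed the reads per library that the paper reports. A sequenced fragment may thus have been counted more than once, and small counts may rest on fewer fragments. Of the 10 genes, 9 had enough counts to be tested, and IGFBP3 had not. The rhabdomyosarcoma markers comprised genes of the skeletal muscle lineage and targets of the PAX3-FOXO1 fusion. These 9 markers summed to 1920 to 2840 CPM in untreated and 1350 to 2250 CPM in BV6-treated samples. Of these 9 markers, MYOD1, MYOG, DES, CHRNA1, FGFR4, NOS1 and PAX3 were expressed, whereas TFAP2B and CDH3 were too low to be tested. The 9 leukocyte markers summed to 9.57 to 13.5 CPM in untreated and 6.78 to 11.1 CPM in BV6-treated samples, most of it from NKG7, while CD3D and MS4A1 were too low to be tested. The 6 fibroblast markers summed to 180 to 271 CPM in untreated and 138 to 257 CPM in BV6-treated samples, and the 4 endothelial markers to 49 to 69.4 and 26.6 to 58.7 CPM. COL3A1 (224 CPM in untreated cells) made up most of the fibroblast sum and PECAM1 (59.3 CPM) most of the endothelial one, while DCN, FAP, CDH5 and KDR were too low to be tested. No marker of these lists passed the test between the groups. The samples come from a single cell line, and whether other cells were present was not tested.

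Promoter sequences are shown for 3 of the genes whose levels were lower after BV6, because each holds a different one of the motifs searched. RefSeq windows (GRCh38.p14) were found for 8 of the 10 genes, with none for IGF2 and AC132217.1, and the 250 bases before the start are given 5′ to 3′. The INS-IGF2 window (chr11:2161210-2161459, minus strand) also holds the start of INS, the insulin gene, in GENCODE. The IGFBP5 window is chr2:216695550-216695799 (minus strand), and that of IRS1 is chr2:226799821-226800070 (minus strand). Capitals mark, on either strand, the NF-κB consensus, the TATA box TATAAA and the GC box GGGCGG.
INS-IGF2: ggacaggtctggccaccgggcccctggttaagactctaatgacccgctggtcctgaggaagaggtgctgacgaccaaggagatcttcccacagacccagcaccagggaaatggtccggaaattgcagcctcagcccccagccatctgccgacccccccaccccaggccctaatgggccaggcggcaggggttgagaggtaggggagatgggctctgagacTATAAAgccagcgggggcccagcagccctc
IGFBP5: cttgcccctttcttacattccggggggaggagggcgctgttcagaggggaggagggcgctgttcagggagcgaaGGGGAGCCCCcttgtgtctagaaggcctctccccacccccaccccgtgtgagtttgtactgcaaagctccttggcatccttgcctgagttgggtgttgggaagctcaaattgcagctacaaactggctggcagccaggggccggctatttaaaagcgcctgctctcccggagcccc
IRS1: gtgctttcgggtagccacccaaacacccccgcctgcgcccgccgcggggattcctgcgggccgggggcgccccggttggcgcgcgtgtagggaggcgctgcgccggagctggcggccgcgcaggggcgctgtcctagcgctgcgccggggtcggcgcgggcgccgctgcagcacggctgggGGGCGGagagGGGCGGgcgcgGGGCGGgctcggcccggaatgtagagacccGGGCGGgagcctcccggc
INS-IGF2 held a TATA box, as did 10.7% of 35116 windows of the same length. IGFBP5 held an NF-κB match whose first base lies 176 bases before the start, and such a match occurred in 5.21% of all windows. Of the 10 windows of the 8 genes, 1 other held an NF-κB match, the second of 3 windows of IGFBP2. IRS1 held 4 GC boxes and neither of the other motifs, and 42.6% of all windows held at least 1 GC box. Of the 10 windows of the 8 genes, 6 held a GC box. Among these were IGF2R with 6 and IGF1R with 2, whose levels overlapped between the groups. These matches describe letters in the windows and no binding.

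IGF2 (chromosome 11, 2129112 to 2158391, minus strand, ENSG00000167244.22) had the highest level per kilobase of exon among those of these genes with a known length in untreated cells and was 3.09-fold lower after BV6. Its level was 186, 117, 176 and 110 CPM in untreated replicates 1 to 4 and 60.1, 45.6 and 37.2 CPM in BV6 replicates 2 to 4. The groups did not overlap, and the highest BV6 sample lay well below the lowest untreated one. The means were 147 ± 39.3 CPM (SD, n = 4) and 47.6 ± 11.6 CPM (SD, n = 3), which gave a log2 fold change of -1.63 ± 0.235 (standard error). Within replicates 2, 3 and 4, the BV6 sample held 0.513, 0.259 and 0.338 of the untreated level. In bulk RNA, fewer IGF2-expressing cells and less IGF2 RNA per cell cannot be told apart.

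**Figure D1:**
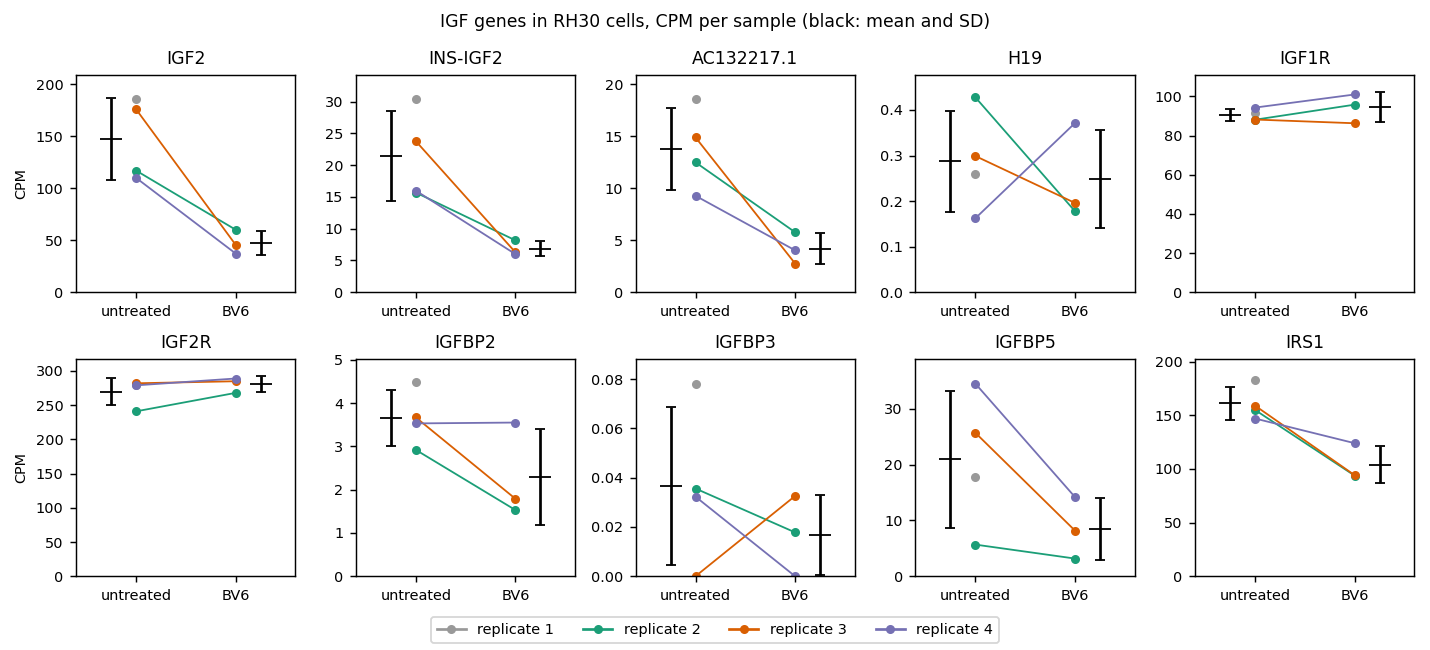
Level (CPM, linear axes from 0) of the 10 IGF genes in each sample, untreated on the left and BV6 on the right of each panel, with lines joining samples of the same replicate number and black bars for the mean and SD of each group. IGF2, INS-IGF2, AC132217.1 and IRS1 were lower in all BV6 samples than in any untreated sample, while IGF1R lay between 86.3 and 101 CPM and IGF2R between 241 and 289 CPM in both groups.

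INS-IGF2 (chromosome 11, 2132538 to 2161209, minus strand, ENSG00000129965.15) is a read-through gene that joins the first exons of INS to exons of IGF2. It had 30.5, 15.7, 23.8 and 16 CPM in untreated replicates 1 to 4 and 8.17, 6.29 and 6 CPM in BV6 replicates 2 to 4, again without overlap. The log2 fold change amounted to -1.66 ± 0.259 (standard error). Of its 1826 exonic bases in GENCODE, 1460 (79.96%) lie in exons of IGF2 on the same strand, and 246 of the remaining 366 bases lie in exons of INS. INS itself had 0 to 2 counts in every sample, under the floor of 3 counts, whereas INS-IGF2 had 323 to 2351 counts. The INS-IGF2 row amounted to 13.4% to 16.4% of the IGF2 row in untreated and 13.6% to 16.1% in BV6-treated samples, so the ratio of the rows was alike in both groups. How reads on both genes were counted is not stated, and a change of INS-IGF2 apart from IGF2 cannot be read from these rows.

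AC132217.1, a transcript named after a genomic clone, could not be placed in the annotation used here, so its position is not given. It had 18.6, 12.5, 14.9 and 9.28 CPM in untreated replicates 1 to 4 and 5.77, 2.76 and 4.03 CPM in BV6 replicates 2 to 4. The BV6 samples lay below all untreated samples, and the log2 fold change amounted to -1.73 ± 0.299 (standard error). The row amounted to 8.45% to 10.7% of the IGF2 row in untreated and 6.04% to 10.8% in BV6-treated samples. With the 3 rows added into 1, the log2 fold change was -1.64 (standard error 0.235). IGF2 held most of the added counts, so this value had to lie near the -1.63 of IGF2 and says nothing about shared reads. Without a position, whether AC132217.1 shares exons with IGF2 could not be seen. GENCODE holds genes without a symbol there, ENSG00000240801 and ENSG00000284779, with 100% and 94.76% of their exonic bases in IGF2 on the same strand. Whether either of them is AC132217.1 was not established. The 3 rows may carry the same reads and are not taken as 3 independent observations.

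H19 (chromosome 11, 1995166 to 2004552, minus strand), the non-coding RNA gene expressed from the opposite parental allele of the cluster, was barely expressed. It had 20, 24, 18 and 10 counts in untreated replicates 1 to 4 and 10, 12 and 20 counts in BV6 replicates 2 to 4. These counts correspond to 0.162 to 0.428 CPM in untreated and 0.178 to 0.371 CPM in BV6-treated samples, so the groups overlapped. The log2 fold change of -0.21 had a 95% interval from -1.20 to 0.79, so at this depth neither a moderate fall nor a moderate rise could be told from no change. IGF2-AS, the antisense gene inside IGF2, which is named here after its values were seen, averaged 0.509 ± 0.17 CPM without BV6 (SD, n = 4) against 0.244 ± 0.0993 CPM with it (SD, n = 3), without overlap. Its log2 fold change of -1.07 did not pass (edgeR, adjusted p = 0.536). It shares 333 exonic bases with IGF2 on the opposite strand. The microRNA genes MIR483, inside IGF2, and MIR675, inside H19, had 0 to 4 and 0 to 1 counts. The libraries were made from poly(A) RNA and do not measure microRNAs.

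The receptors showed a different picture. IGF1R (chromosome 15, 98648539 to 98964530), the signaling receptor for IGF2, had 91.5, 88.1, 88.2 and 94.3 CPM in untreated replicates 1 to 4 and 95.8, 86.3 and 101 CPM in BV6 replicates 2 to 4. The groups overlapped, and the log2 fold change was 0.06 with a 95% interval from -0.16 to 0.28. IGF2R (chromosome 6, 159969082 to 160113507) had 279, 241, 282 and 279 CPM in untreated and 268, 285 and 289 CPM in BV6-treated samples. Its groups overlapped as well, with a log2 fold change of 0.06 and a 95% interval from -0.16 to 0.27. IGF1R was also steady among untreated samples, since the ratio of its highest to its lowest untreated sample was 1.07 and 98.8% of the 23124 tested genes had a larger one.

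IRS1 (chromosome 2, 226731312 to 226799820, minus strand), the adaptor that links IGF1R to PI3K, had 183, 155, 159 and 147 CPM in untreated replicates 1 to 4. In BV6 replicates 2 to 4 it had 93.8, 94.2 and 124 CPM. All BV6 samples lay below all untreated samples, and the log2 fold change amounted to -0.63 (95% interval -0.93 to -0.33). The ratio of BV6 to untreated was 0.605, 0.593 and 0.844 in replicates 2, 3 and 4, so the difference was smallest in replicate 4.

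Of the tested binding proteins among the 10 genes, IGFBP5 (chromosome 2, 216672105 to 216695549, minus strand), a major IGFBP of skeletal muscle, varied most between replicates. It had 17.8, 5.67, 25.7 and 34.5 CPM in untreated replicates 1 to 4 and 3.17, 8.19 and 14.2 CPM in BV6 replicates 2 to 4. The groups overlapped, since untreated replicate 2 lay below BV6 replicates 3 and 4, and replicate 2 was the lowest in both groups. The highest untreated sample was 6.09 times the lowest, and only 2.19% of tested genes had a larger ratio (median 1.44). Within replicates 2, 3 and 4, the BV6 sample held 0.559, 0.318 and 0.413 of its untreated counterpart, lower in 3 of 3. The log2 fold change was -1.30 with a standard error of 0.599, and -1.27 with a standard error of 0.168 when the replicate number was included as a block.

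IGFBP2 (chromosome 2, 216632828 to 216664436), which lies next to IGFBP5 on the opposite strand, had 4.49, 2.92, 3.67 and 3.53 CPM in untreated replicates 1 to 4. It had 1.53, 1.79 and 3.55 CPM in BV6 replicates 2 to 4. BV6 replicate 4 matched its untreated counterpart (ratio 1.01), while replicates 2 and 3 were at 0.524 and 0.489, and the log2 fold change was -0.68 (standard error 0.301). IGFBP3, the main IGF carrier in serum, had 6, 2, 0 and 2 counts in untreated and 1, 2 and 0 counts in BV6-treated samples. Only untreated replicate 1 exceeded the floor of 3 counts, so no fold is given.

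**Figure D2:**
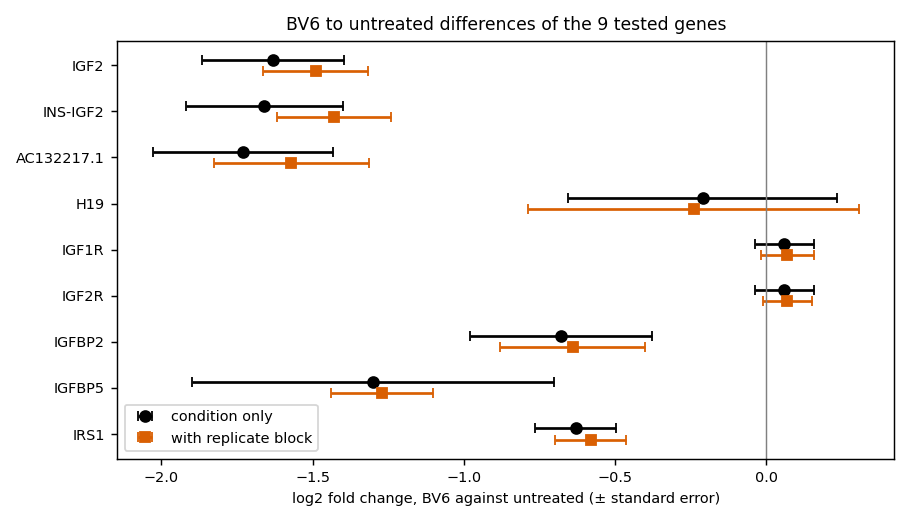
Log2 fold change of BV6 against untreated samples with its standard error for the 9 tested genes, fitted on the condition alone (circles) and with the replicate number as a block (squares). IGF2, INS-IGF2 and AC132217.1 lay between -1.73 and -1.43 in both fits, IGF1R and IGF2R near 0, and the error of IGFBP5 shrank from 0.599 to 0.168 with the block.

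In the fit across all genes, 3 of the 9 tested genes (IGF2, INS-IGF2 and AC132217.1) had an adjusted p below 0.05, all lower with BV6. Of all 23124 tested genes, 0.45% passed in either direction, 0.0562% lower and 0.394% higher. With the replicate block, 4 genes passed, IGFBP5 in addition, where 0.943% of all genes passed, 0.294% lower and 0.649% higher. The 3 calls were the basis for choosing the genes and may rest on the same reads, so nothing is read from the counts. Groups did not overlap for 4 of the 9 genes, all lower with BV6, where 3.89% of all genes showed that pattern. In all 3 shared replicate numbers, 5 of the 9 genes were lower with BV6, against 17.8% of all genes. The median log2 fold change of the 9 genes was -0.68, and that of all tested genes was -0.014. IGF2, INS-IGF2 and AC132217.1 enter both of these counts and the median, so nothing is read from them about the axis either. The count of 3 fell to 0 when untreated replicate 1, untreated replicate 3 or BV6 replicate 4 was left out, although the log2 fold change of IGF2 stayed between -1.82 and -1.48.

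Levels of different genes were compared per kilobase (kb) of exon in GENCODE, which leaves out AC132217.1. In untreated cells, IGF2 had 20.6 ± 5.49 CPM per kb (SD, n = 4), more than 88% of the 17940 tested genes with a known length. IRS1 followed with 16.1 ± 1.54 CPM per kb, and the ranges of IGF2 (15.4 to 26) and IRS1 (14.6 to 18.2) overlapped. IGF2R had 11.9 ± 0.862 CPM per kb and lay below every IRS1 sample. The INS-IGF2 row, at 11.8 ± 3.88 CPM per kb, overlapped with IGF2R. That row may carry reads of IGF2, so it gives no level of the read-through itself. IGF1R stood at 6.49 ± 0.212 CPM per kb, below all IGF2R samples and above all samples of IGFBP5 (3.24 ± 1.89 CPM per kb). IGFBP2 (0.77 ± 0.136 CPM per kb) and H19 (0.0829 ± 0.0318 CPM per kb) were the lowest of the tested genes, without overlap between them. The lowest IGFBP5 sample (0.876) lay below the highest IGFBP2 sample (0.947), so these neighbors in the order overlapped. After BV6, IGF2 had 6.67 ± 1.62 CPM per kb (SD, n = 3), a level close to the 6.78 ± 0.549 CPM per kb of its receptor IGF1R. The order in BV6-treated cells was led by IGF2R (12.4 ± 0.485 CPM per kb) and IRS1 (10.4 ± 1.72 CPM per kb).

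**Figure D3:**
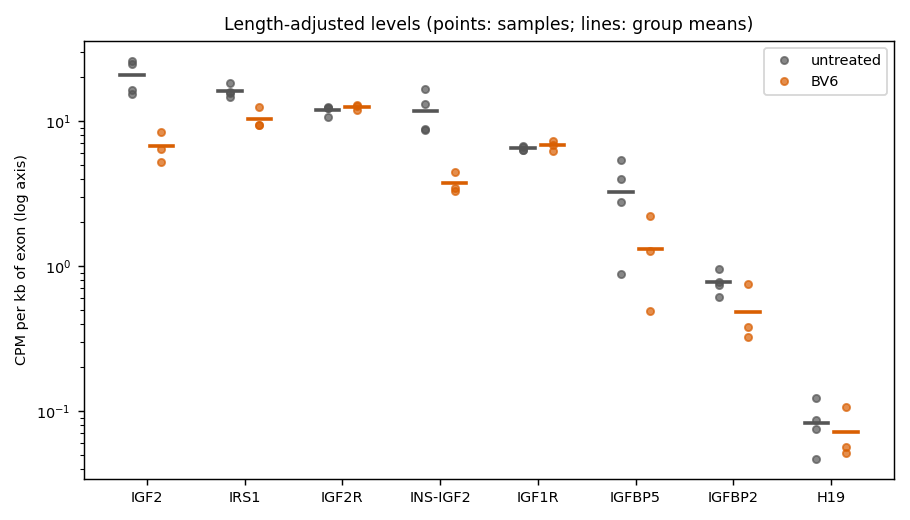
Level per kb of exon (CPM per kb, log axis) in each untreated (grey) and BV6 (orange) sample, with lines for group means. IGF2 led the genes at 20.6 CPM per kb in untreated cells and stood at 6.67 CPM per kb with BV6, beside IGF1R at 6.78.

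To describe the rest of the pathway, 64 further genes of IGF and insulin signaling were listed by role, of which 55 passed the filter on low counts. None passed at an adjusted p below 0.05 in either direction, with or without the replicate block (edgeR with Benjamini-Hochberg adjustment). The unadjusted p was below 0.05 for 7 of them (12.7%), and for 8.39% of all tested genes. Their log2 fold changes ranged from -1.07 to 0.43 with a median of -0.03. DESeq2 called 1 gene, PAPPA, limma-voom called 0, and 8 of the 55 genes (14.5%) had groups that did not overlap, against 8.83% of all tested genes.

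Other ligands were nearly absent, since IGF1 had 0 to 5 counts per sample and INS 0 to 2. The insulin receptor INSR averaged 12.2 ± 1.74 CPM without BV6 (SD, n = 4) against 11.2 ± 1.74 CPM with it (SD, n = 3), a log2 fold change of -0.13. The insulin receptor-related INSRR was at 0.204 ± 0.144 and 0.189 ± 0.0619 CPM. Among the binding proteins, IGFBP7 had a log2 fold change of 0.13 and IGFBP6, which prefers IGF2, one of -0.25 (95% interval -0.72 to 0.22). All 6 IGFBP proteases and protease inhibitors had negative log2 fold changes (-0.74 to -0.03, median -0.17), and none passed. Of all tested genes, 52.3% had a negative log2 fold change. Of the 6 genes, STC2, an inhibitor of pappalysins, was at -0.03 and ADAM12 at -0.29. PAPPA, a protease that cleaves IGFBPs and is named here after its values were seen, had 14.7, 13.8, 14.4 and 13.6 CPM in untreated and 7.14, 10.6 and 10.3 CPM in BV6-treated samples. Its log2 fold change was -0.59 (edgeR, adjusted p = 0.246).

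The IGF2 mRNA-binding proteins, which bind IGF2 transcripts and regulate their translation and stability, were abundant and did not pass the test. IGF2BP1 averaged 148 ± 16.6 CPM without BV6 (SD, n = 4) against 160 ± 22.4 CPM with it (SD, n = 3), a log2 fold change of 0.11 (95% interval -0.18 to 0.40). IGF2BP2 had a log2 fold change of -0.10 (95% interval -0.31 to 0.11). Downstream of the receptor, the median log2 fold change was 0.03 over 18 PI3K-AKT-mTOR genes and 0.01 over 9 RAS-MAPK genes. The adaptor GRB2 was at -0.03 and the kinases AKT1 and MTOR at -0.30 and -0.03, all with intervals that include 0. SHC1, an adaptor to the RAS pathway, was at -0.38 (95% interval -0.67 to -0.08) and the GTPase NRAS at 0.34 (0.05 to 0.63), and neither passed (edgeR, adjusted p = 0.446 and adjusted p = 0.509). FOXO3, a transcription factor that AKT restrains, had the smallest adjusted p of the list. It had 86.5, 75.9, 90.1 and 92 CPM in untreated and 116, 120 and 111 CPM in BV6-treated samples, higher in all BV6 samples, but it did not pass (log2 fold change 0.43, adjusted p = 0.168, or 0.108 with the block, edgeR with Benjamini-Hochberg adjustment). FOXO1, the partner of PAX3 in the fusion of alveolar rhabdomyosarcoma, was at 0.05, and its row can hold reads of the fusion transcript. Of the factors that act on the IGF2 locus, the insulator protein CTCF was at -0.02 and the imprinted zinc finger gene PLAGL1 at -0.05, and their 95% intervals lay within -0.31 and 0.24.

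**Figure D4:**
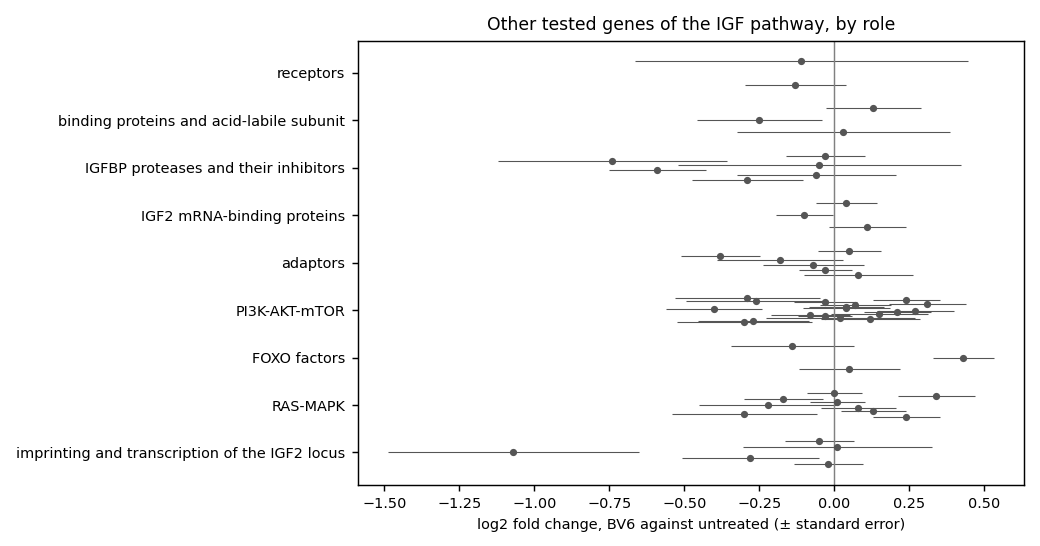
Log2 fold change with standard error of the 55 tested pathway genes outside the 10 described first, grouped by role. Most lay near 0, with the lowest point, IGF2-AS, at -1.07 and the highest, FOXO3, at 0.43.

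The genes around IGF2 on chromosome 11 were described in the same way. Of 19 listed genes of the 11p15.5 region, 12 were tested, 11 of them had negative log2 fold changes and their median was -0.48. None passed at an adjusted p below 0.05, and 2 (LSP1 and TNNI2) did with the replicate block. A window of 500 kb on each side of IGF2, drawn after these values were seen, held 18 tested genes besides IGF2, INS-IGF2 and H19, of which 16 had negative log2 fold changes, where 52.3% of all tested genes did. Groups did not overlap, with lower BV6 values, for 4 of the 18 (LSP1, MIR7847, MRPL23 and IGF2-AS), against 3.89% of all tested genes. These rows are not independent, since MIR7847 (log2 fold change -1.95, the lowest of the window) and PRR33 lie inside LSP1 and IGF2-AS lies inside IGF2, where reads can be shared. LSP1 (1850904 to 1892267), a gene of an actin-binding protein known from leukocytes, had 22.6, 13.3, 22.1 and 21.6 CPM in untreated replicates 1 to 4 and 4.67, 5.74 and 11.5 CPM in BV6 replicates 2 to 4. The log2 fold change of LSP1 amounted to -1.45 ± 0.32 (edgeR, adjusted p = 0.137 on the condition alone and adjusted p = 0.0202 with the block).
TNNI2, the fast-muscle troponin I gene, had 1.48, 0.998, 2.09 and 2.75 CPM in untreated and 0.321, 0.505 and 1.28 CPM in BV6-treated samples, so the groups overlapped. The log2 fold change of TNNI2 amounted to -1.39 (edgeR, adjusted p = 0.462 on the condition alone and adjusted p = 0.0488 with the block). The fast-muscle troponin T gene TNNT3 (-1.44) and SYT8 (-1.04) did not pass in either fit. On the INS side of IGF2, CD81 was at -0.27, TSSC4 at -0.44 and KCNQ1OT1 at -0.33, none of them past the test.

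**Figure D5:**
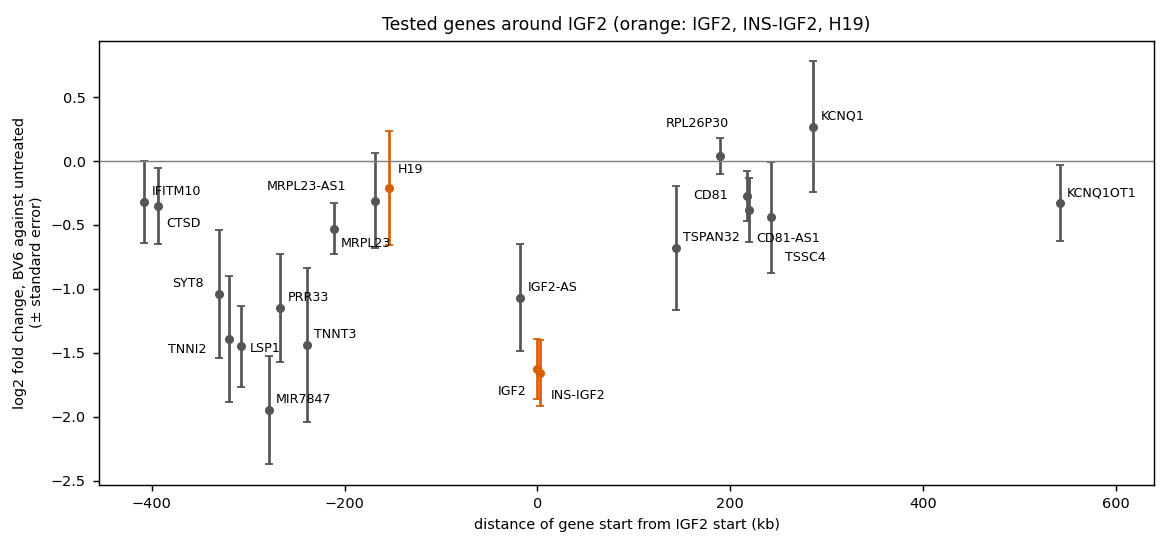
Log2 fold change with standard error of the tested genes overlapping the window of 500 kb on each side of IGF2, against the distance of their starts from the IGF2 start in kb, with negative distances toward H19. IGF2 and INS-IGF2 (orange) lay at -1.63 and -1.66, H19 between them and a second low group from SYT8 to TNNT3 lay at -0.21, and genes beyond TSPAN32 lay between -0.44 and 0.27.

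Genes whose levels followed IGF2 most closely were sought among 17051 genes with a mean of at least 1 CPM. Likeness was measured as the root-mean-square difference between log2 CPM profiles over the 7 samples, each centered on its own mean. INS-IGF2 (0.115) and AC132217.1 (0.268) were closer to IGF2 than any of these genes. The nearest of the others included IGLC1 (0.272), an immunoglobulin lambda constant gene, and LINC00511 (0.274), a long non-coding RNA. LINC00511 had 25.4, 23.6, 28.7 and 27 CPM in untreated and 11.6, 10.1 and 8.43 CPM in BV6-treated samples. ENTPD2 (0.28), an ectonucleotidase gene, and IGLL5 (0.293), which lies in the lambda locus, came next. IGLC1 and IGLL5 share near-identical sequence with paralogs, so their counts are uncertain. The other gene of the nearest 5, MXRA5Y (0.272), is given by name only. IRS1 was less alike, at 0.598 with 215 of these genes closer, and H19 stood at 0.925 with 11641 closer.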

How the data were processed

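Counts of 7 samples (4 untreated, 3 BV6) were used. The authors prepared stranded poly(A) libraries, mapped paired-end reads to GRCh38 with STAR 2.6.1d (per the submitters' processing notes) and deposited raw counts from a union model of Ensembl isoforms. How shared reads, strand and mates were counted is not given in the sources used here. Rows were tested with the quasi-likelihood test of edgeR 4.0.16 in R 4.3.3 (filterByExpr at a minimum of 10 counts, TMM factors, condition as the only term) and adjusted over 23124 genes by Benjamini-Hochberg. Standard errors were derived from the F statistic, and 95% intervals from these and the test's degrees of freedom. The methods state no design formula, so the block by replicate number is an alternative. Deviations of same-numbered samples from the means of the shared replicates correlated at 0.515, 0.322 and 0.197 (0.0847 for replicate 4 when all 4 untreated samples were centered), so numbers were taken as pairs. Log2 CPM used a prior count of 2. Gene models were those of GENCODE release 44 on the same build, later than the annotation used by the authors. Members, lists and motifs were chosen with earlier results of these data known. Named were all 10 members, in each role of the pathway list the called genes and the 2 with the highest mean CPM, tested genes of the 11p15.5 list and the 5 genes most like IGF2. IGF2-AS and PAPPA, outside this rule, were named after their values were seen. DESeq2 1.42.0, limma-voom (limma 3.58.1), RLE factors, other filters, summed rows and leaving out each sample were alternatives. The fit was tested on simulated counts. The floor of 3 counts only marks detection and does not cover the counting error of small rows above it. Some genes of the lists are not reported here.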

Additional observations from a re-analysis of the deposited data

Results flagged for a closer look

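IGF2R in untreated replicate 2 stood apart from the other untreated samples, at 241 CPM against 279 to 282 CPM. Its gap filled 0.919 of the range of the 4 samples, above the 95% critical value of Dixon's test. It was the 1 such case among 32 genes examined, and chance gives about 1 in 20. BV6 replicate 2, at 268 CPM, was the lowest of the BV6 samples.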

How the results depend on the processing

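The number of genes with an adjusted p below 0.05, 104 with edgeR on the condition alone, rose to 401 with DESeq2, 242 with no filter on low counts and 218 with the replicate block, and ranged from 38 to 89 with each sample left out in turn. Of the 9 tested IGF genes, 3 passed on the condition alone, 4 with DESeq2 or without the filter (IRS1 added), 4 with the replicate block (IGFBP5 added), 2 with limma-voom (AC132217.1 lost), and 0 to 2 with a sample left out. Of the pathway list, 0 passed in all settings but DESeq2, which called 1 (PAPPA). Apart from IGFBP5, LSP1 and TNNI2, the block changed no call among the genes of the lists. Of 120 log2 fold changes of the 9 genes under the alternatives, 119 moved by less than the gene's own spread between replicates. This limit is widest for the most variable genes, so it says little about stability. Over the fits that left out a sample, IGFBP5 ranged from -1.87 to -0.90 and H19 from -0.60 to 0.04, both within it. The exception to this limit was IGFBP2, at -1.13 without BV6 replicate 4 and between -1.13 and -0.45 over the same fits. H19 changed sign once, at 0.04 without untreated replicate 2, and was never called. The planned correction for GC content is void, because only 77.6% of the tested genes had a known GC content, and was not run. Depth limits H19 and IGFBP3, with at most 24 counts per sample. The microRNA rows come from poly(A) libraries and say nothing about the levels of the microRNAs.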
